A study of Mus musculus with 8 samples.

Results

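The 34 genes described here encode the enzymes and factors with which mitochondria make protein: 16 mitochondrial aminoacyl-tRNA synthetases, 3 genes of initiation, 4 of elongation, 4 of release and ribosome recycling, 2 subunits of the glutamyl-tRNA amidotransferase, and 5 genes of membrane insertion, translational activation or ribosome binding. They were chosen by name. Every array probe whose accession is a mouse RefSeq transcript of one of these genes was taken, which gave 65 of the 56605 different probes on the array, and all 65 could be tested. Of the 34 genes, 14 had a single probe and 20 had several.

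RNA came from skeletal muscle of 6 male mice aged 17 months, 3 Grsf1cKO and 3 WT. In Grsf1cKO mice the floxed exons IV and V of *Grsf1* were removed by Myf5Cre, a recombinase driven from a gene of the muscle lineage, so that other cells of the tissue keep the gene. The alleles carried by the WT controls are not given beyond wild type. The labels name the muscle as the vastus intermedius, whereas the paper names the rectus femoris, and both belong to the quadriceps. Each mouse was measured on an Agilent 1-color array, and WT 1 and Grsf1cKO 1 on a repeat array as well, so that there were 8 arrays of 6 mice.

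Mitochondria have their own ribosomes, which make only the few respiratory chain subunits encoded in mitochondrial DNA. Apart from glutamine, each amino acid is joined to its mitochondrial tRNA by a synthetase. All of these synthetases and factors are encoded in the nucleus, made in the cytosol and imported. GRSF1 is an RNA-binding protein of the mitochondrial RNA granules, where transcripts of the mitochondrial genome are processed before they reach the ribosome. The comparison here asked whether the nuclear mRNAs of the translation machinery differed in muscle that lacked *Grsf1*.

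No mRNA of this group passed the test in Grsf1cKO muscle, in either direction. The difference on the brightest probe of each gene, given throughout as the log2 fold change of Grsf1cKO over WT, lay between -0.22 for *Vars2* and 0.15 for *Mars2*. For 33 of the 34 genes the 95% confidence interval on that probe excluded a change of 1.5-fold in either direction, and the exception was *Mss51*. Most differences lay slightly below 0, on 26 of the 34 genes, as they did for most probes of the array.

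The levels below are log2 signals after quantile normalization, averaged over the arrays of a mouse. Since probes differ in how strongly they bind, they are compared between mice and never between genes. The targeted gene was checked first. *Grsf1* (probe of NM_178700) stood at 12.15, 12.02 and 12.08 in Grsf1cKO mice 1 to 3 and at 14.30, 14.25 and 14.27 in WT mice 1 to 3, a log2 fold change of -2.19 ± 0.0811 (SE, n = 3 and 3, adjusted *p* = 0.00328, limma). All 6 mice therefore matched their labels at this probe. Whether the probe lies in the deleted exons was not examined here.

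Of the 65 probes of the 34 genes, 0 passed all the criteria in limma (a difference beyond 1.5-fold, *p* under 0.01 before adjustment, and a false discovery rate under 0.2 by Benjamini-Hochberg), beside 0.00771% of all probes tested. At an unadjusted *p* under 0.05 the count was also 0, beside 4.25% of all probes, and the count past 1.5-fold with no *p* was 0, beside 4.13%. The smallest unadjusted *p* was 0.0588, for a dim probe of *Ears2*, and the smallest adjusted *p* was 0.996. The low counts did not come with wide intervals. The 95% interval lay within 1.5-fold for 58 of the 65 probes (89.2%), beside 62.9% of all probes, and the median standard error was 0.102, beside 0.142 for all probes tested. The median size of the difference was 0.05, beside 0.11 for all probes. With 3 mice of each genotype and no statement on litters, these errors measure only the spread between these mice, and in whole muscle fewer cells of a type cannot be told apart from less RNA per cell.

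**Figure D1:**
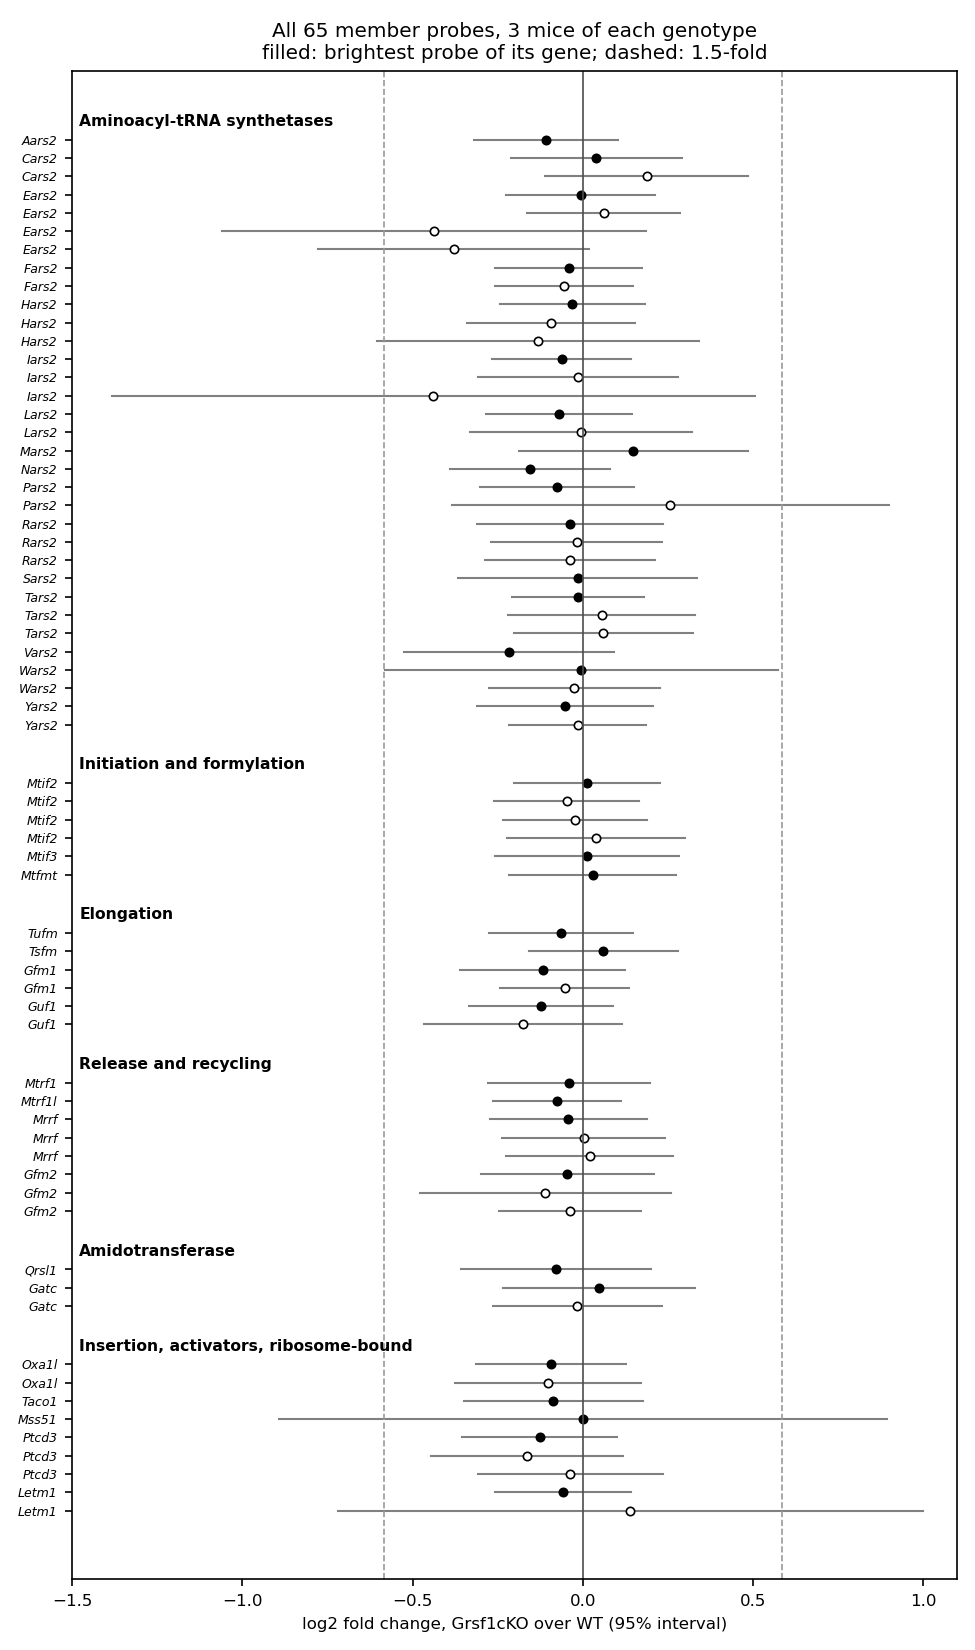
Log2 fold change of Grsf1cKO over WT (point) with its 95% confidence interval (line) for all 65 probes, grouped by role, with filled points for the brightest probe of each gene and dashed lines at 1.5-fold. Every interval crosses 0, and 58 of 65 stay between the dashed lines.

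The synthetases were the largest group. Their 33 probes lay between -0.44 and 0.26, with a median over the 16 genes of -0.04, and 14 of the 16 genes were below 0. *Tars2*, which charges the threonine tRNA, had the tightest interval around no change among the brightest probes. On that probe its log2 signals were 13.77, 13.75 and 13.78 in Grsf1cKO mice 1 to 3 and 13.76, 13.74 and 13.85 in WT mice 1 to 3. All 6 values fell within 0.11 of each other, the WT mice spanned the Grsf1cKO mice, and the 95% interval of the difference ran from -0.21 to 0.18, at most 1.16-fold either way. Its other probes, both dimmer, gave 0.06 (interval -0.22 to 0.33) and 0.06 (interval -0.20 to 0.32). *Ears2*, the glutamate enzyme, came next on its brightest probe, with 11.51, 11.41 and 11.57 in Grsf1cKO mice and 11.52, 11.42 and 11.56 in WT mice. These 2 sets of 3 values covered nearly the same span, and the interval of the difference ran from -0.23 to 0.21.

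Of the synthetase probes, 3 had genotypes that did not overlap, each with Grsf1cKO below WT. Over all 65 probes this was so for 6 (9.23%), beside 6.27% of all probes, and 0 probes were higher without overlap, beside 3.08% of all probes. *Aars2*, the alanine enzyme, measured 11.64, 11.55 and 11.59 in Grsf1cKO mice and 11.65, 11.80 and 11.65 in WT mice. The highest Grsf1cKO mouse and the lowest WT mouse were 0.01 apart, and the log2 fold change was -0.11 (95% interval -0.32 to 0.11). *Nars2*, the asparagine enzyme, measured 9.71, 9.63 and 9.74 in Grsf1cKO mice and 9.83, 9.97 and 9.74 in WT mice. Here the mice nearest to each other, Grsf1cKO 3 and WT 3, had the same value to 2 decimals, and the difference was -0.15 (interval -0.39 to 0.08). For both genes the exact 2-sided permutation *p* was 0.1, the smallest that 3 mice against 3 can give. Every probe whose genotypes do not overlap has this value, so that it adds nothing to the lack of overlap.

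The remaining synthetase probe without overlap was one of the dim probes of *Ears2*, and its difference was larger than that of the brightest. *Ears2* has 4 probes of the same transcript (NM_026140). The brightest and the next differed by -0.01 and 0.06 between genotypes, while the other 2, both dimmer, differed by -0.44 and -0.38. The former of these dimmer probes read 8.61, 8.64 and 7.79 in Grsf1cKO mice and 8.91, 8.89 and 8.56 in WT mice. The latter read 7.76, 7.83 and 7.30 in Grsf1cKO mice and 8.03, 7.89 and 8.11 in WT mice. Grsf1cKO 3 was the lowest mouse on both, and their intervals, from -1.06 to 0.19 and from -0.78 to 0.02, included 0. The 4 probes of *Ears2* thus ranged from -0.44 to 0.06. No test compared them with each other, and the cause of their spread was not tested. In 7 of the 20 genes with several probes the sign differed between probes, and in 13 it was shared. *Iars2*, the isoleucine enzyme, gave -0.06 and -0.01 on its NM_198653 probes and -0.44 (interval -1.38 to 0.51) on a dim probe of the predicted transcript XM_006497179. *Pars2*, the proline enzyme, gave -0.08 on its brighter probe and 0.26 (interval -0.38 to 0.90) on its dimmer one.

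The lowest and the highest differences on brightest probes, those of *Vars2* and *Mars2*, had genotypes that overlapped. *Vars2*, the valine enzyme, measured 9.63, 9.52 and 9.79 in Grsf1cKO mice and 9.95, 9.97 and 9.67 in WT mice. WT 3 lay among the Grsf1cKO mice, and the difference was -0.22 (interval -0.52 to 0.09, unadjusted *p* = 0.135, limma). *Mars2*, the methionine enzyme, measured 7.43, 7.67 and 7.62 in Grsf1cKO mice and 7.65, 7.23 and 7.39 in WT mice. WT 1 lay between the Grsf1cKO mice, and the difference was 0.15 (interval -0.19 to 0.49). The Grsf1cKO 1 value is the mean of 2 arrays at 7.73 and 7.14, and the difference was 0.26 with first arrays only and 0.05 where the repeats replaced them. Without WT 1 it was 0.26, and without WT 2 it was 0.05. *Wars2*, the tryptophan enzyme, averaged the same in both genotypes (difference 0.00, interval -0.58 to 0.57) but spread widely, with 9.73, 9.59 and 10.01 in Grsf1cKO mice and 10.27, 9.56 and 9.51 in WT mice. WT 1 was the highest mouse, and without it the difference was 0.24. Its dimmer probe gave a difference of -0.02 (interval -0.27 to 0.23). The dim probes of *Ears2*, *Iars2*, *Pars2* and *Cars2*, and *Vars2*, *Mars2*, *Wars2* and *Mss51*, were singled out after their values were seen.

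The other synthetases stayed close to 0 on their brightest probes: *Fars2* (phenylalanine) at -0.04, *Hars2* (histidine) at -0.03, *Lars2* (leucine) at -0.07, *Rars2* (arginine) at -0.04, *Sars2* (serine) at -0.02, *Yars2* (tyrosine) at -0.05 and *Cars2* (cysteine) at 0.04. The intervals of these 7 genes all lay between -0.37 and 0.34. The dimmer probe of *Cars2* read 0.19 (interval -0.11 to 0.49).

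The 3 initiation genes all lay just above 0. *Mtif2*, which brings the formylated methionyl-tRNA to the ribosome, gave 0.01 on the brightest of its 4 probes, and the 4 together ranged from -0.05 to 0.04. *Mtif3*, the other initiation factor, gave 0.01, and *Mtfmt*, the enzyme that formylates methionyl-tRNA, gave 0.03. The 6 probes of this group all had intervals within 1.5-fold.

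Among elongation genes, *Tufm*, the factor that delivers aminoacyl-tRNA to the ribosome, gave -0.06, and *Tsfm*, which recharges it with GTP, gave 0.06. *Gfm1*, the factor that moves the ribosome along the mRNA, gave -0.12 and -0.05 on its probes. *Guf1*, a GTPase related to bacterial elongation factor EF4, was the member of this group whose genotypes did not overlap. Its log2 signals were 9.89, 9.97 and 10.02 in Grsf1cKO mice and 10.16, 10.05 and 10.04 in WT mice. Grsf1cKO 3 and WT 3 were 0.02 apart, and the difference was -0.12 (interval -0.33 to 0.09, exact permutation *p* = 0.1). Its dimmer probe, where genotypes overlapped, gave -0.18 (interval -0.47 to 0.12).

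The 4 release and recycling genes all lay below 0. *Mtrf1l*, the release factor that reads the common mitochondrial stop codons, had the narrowest spread. It measured 11.50, 11.49 and 11.51 in Grsf1cKO mice and 11.60, 11.59 and 11.53 in WT mice. The genotypes did not overlap, but the difference was only -0.08 ± 0.0764 (SE, interval -0.26 to 0.11). Its relative *Mtrf1* gave -0.04, the recycling factor *Mrrf* gave -0.04, and *Gfm2*, which splits the ribosome with it, gave -0.04, with further probes of these genes between -0.11 and 0.02. The amidotransferase turns glutamate on the glutamine tRNA into glutamine, in place of a mitochondrial glutamine synthetase. Its subunits *Qrsl1* and *Gatc* gave -0.08 and 0.05 on their brightest probes, with intervals from -0.36 to 0.20 and from -0.23 to 0.33.

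*Oxa1l* inserts newly made proteins into the inner membrane. It measured 14.14, 14.13 and 13.95 in Grsf1cKO mice and 14.19, 14.16 and 14.14 in WT mice. The gap between genotypes was under 0.01, and Grsf1cKO 3 was the lowest mouse. The difference was -0.09 (interval -0.31 to 0.13), and the dimmer probe gave -0.10 with overlapping genotypes. *Taco1*, an activator of the translation of cytochrome oxidase subunit I, gave -0.09. *Ptcd3*, a protein bound to the small ribosomal subunit, gave -0.13, -0.16 and -0.04 on its probes. *Letm1*, an inner membrane protein that also binds ribosomes, gave -0.06. Its other probe, the only one of the 65 not well above background in all 6 mice, gave 0.14 with an interval that reached past 1.5-fold both ways.

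*Mss51*, a muscle gene related to a yeast activator of cytochrome oxidase translation, was the member that varied most among mice on the brightest probe. Its log2 signals were 16.66, 16.60 and 16.80 in Grsf1cKO mice and 17.05, 15.82 and 17.19 in WT mice. The 3 Grsf1cKO mice lay between WT 2, the lowest mouse, and the other WT mice, and the range over 6 mice was 1.37, beside a median of 0.25 over the 34 genes. The mean difference was 0.00, with an interval from -0.89 to 0.89, so that a change of 1.5-fold was not excluded. Without WT 2 the difference was -0.43 (unadjusted *p* = 0.0125, adjusted *p* = 0.959, limma). The repeat differed from the first array by -0.03 in WT 1 and by 0.06 in Grsf1cKO 1, while WT 2 was measured on a single array, so that its value has no repeat. The array of WT 2 and the first array of WT 1 were on slide 1, and all other arrays were on slide 2. For WT 2, mouse and slide therefore cannot be told apart. In WT 2 the summed linear signal of 9 fast glycolytic fiber markers was 99.8% of the WT mean, and that of 9 slow and oxidative fiber markers was 99.2%. Both sums rest mostly on their brightest genes, and quantile normalization gives the top-ranked probes nearly equal values on every array. The sums therefore say little about dimmer fiber genes. Markers of immune cells were higher in WT 2 than in WT 1 and WT 3: lymphocyte markers summed to 154%, beside 65.8% and 80.2%, neutrophil markers to 146%, beside 53.9% and 99.6%, and macrophage markers to 111%, beside 94.5% and 94.3%. Adipocyte markers summed to 123% in WT 2, 120% in WT 1 and 57.4% in WT 3. Smooth muscle markers (117%, beside 85.4% and 97.3%) and red blood cell markers (121%, beside 109% and 70.6%) were also higher in WT 2 than in WT 1 and WT 3. Grsf1cKO 3 exceeded WT 2 in neutrophil markers (227%) and macrophage markers (126%), but not in lymphocyte markers (93.0%), and its *Mss51* signal was 16.80. The part of fiber type or other cells in the *Mss51* values was not tested.

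**Figure D2:**
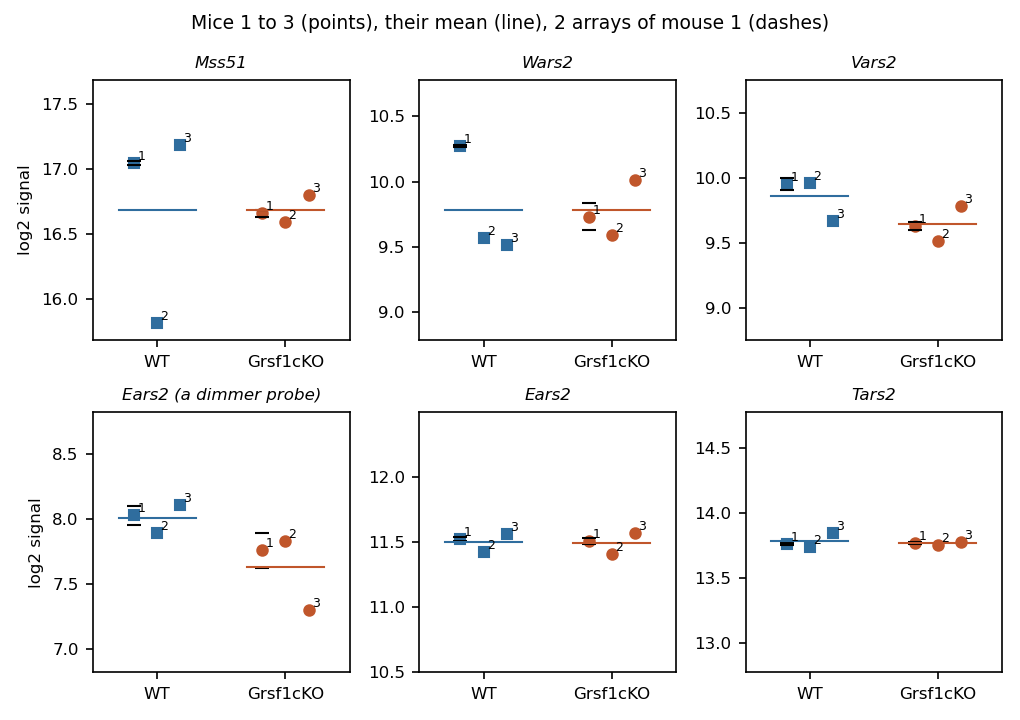
Log2 signal of 6 probes in each mouse (numbered points), with the genotype mean (colored line) and both arrays of mouse 1 (black dashes), on axes that all span 2 log2 units. WT 2 lies far below the other mice for Mss51, the dimmer Ears2 probe is lowest in Grsf1cKO 3 while the brightest shows the same span in both genotypes, and Tars2 is level in all 6 mice.

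**Figure D3:**
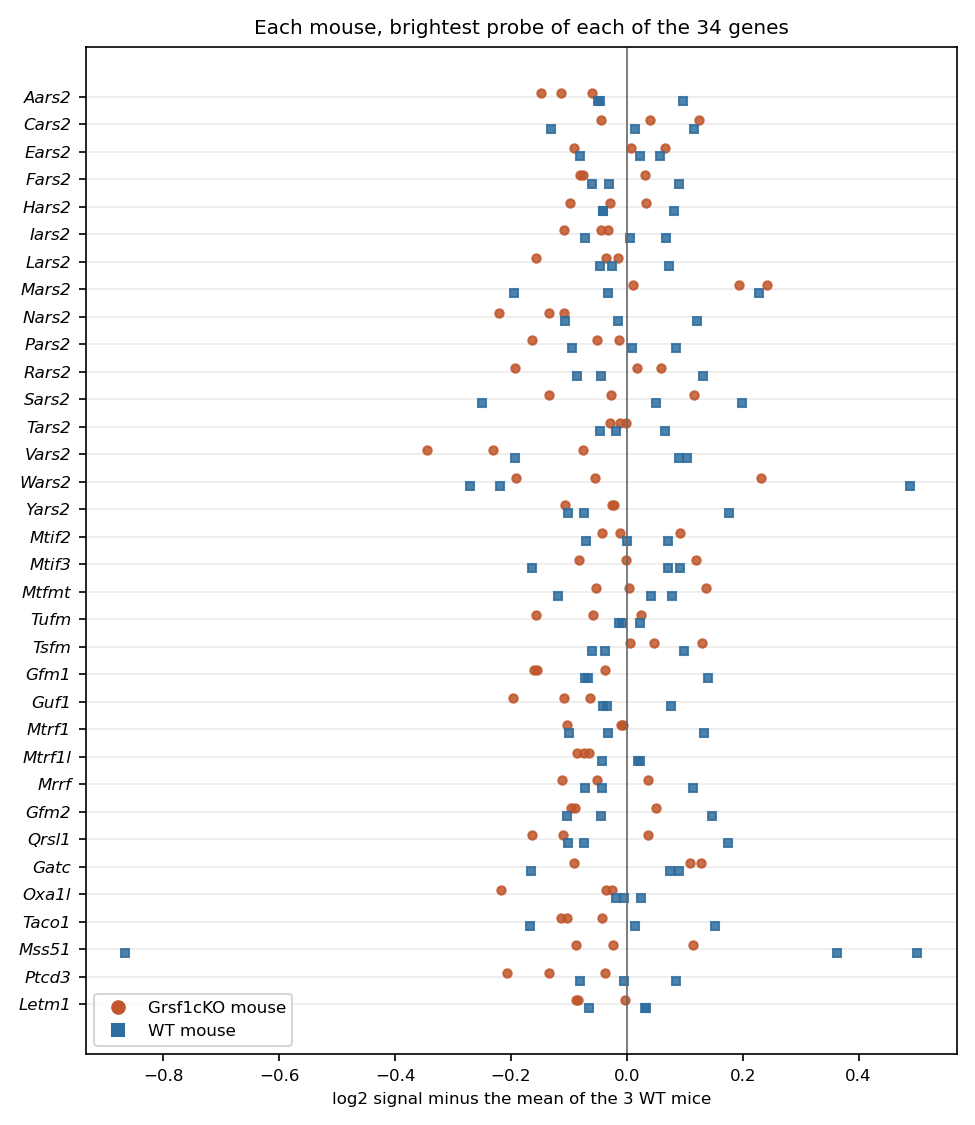
Log2 signal of each Grsf1cKO mouse (circles) and WT mouse (squares) minus the WT mean, on the brightest probe of each of the 34 genes. Apart from Mss51 and Wars2, mice of both genotypes lie close to the WT mean, and the 5 genes without overlap (Aars2, Nars2, Guf1, Mtrf1l and Oxa1l) are separated by narrow gaps.

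The shift shared by many members was small and depended on the scaling. Averaged over the 34 genes, the log2 signal relative to the WT mean was -0.04, -0.03 and -0.06 in Grsf1cKO mice 1 to 3 and 0.05, -0.02 and -0.02 in WT mice 1 to 3. The Grsf1cKO mice were lowest, but WT 2 and WT 3 were nearer to them than to WT 1. Of the 65 probes, 48 (73.8%) were below 0, beside 57.5% of all probes tested, and the median over the 34 genes was -0.04, beside -0.02 over all 17030 named genes tested. With each array scaled to its 75th percentile instead, 46.3% of all probes and 43 of the 65 (66.2%) were below 0, and the median over the 34 genes was -0.07, beside 0.01 over all probes. The median of the 34 genes thus lay 0.08 below that of all probes under this scaling, and 0.02 below it with quantile normalization. With each mouse left out in turn, 41 to 51 of the 65 were below 0.

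The 2 arrays of a mouse measure technical error only, whereas a difference between genotypes also holds the spread between mice, with a median SD of 0.110 over the 3 WT mice. The size of the difference between repeat and first array had a median of 0.0328 over the 65 probes in WT 1 and of 0.0676 in Grsf1cKO 1. The genotype difference was larger than this technical error in 38 of 65 probes for WT 1 and in 31 of 65 for Grsf1cKO 1, counts that leave out the spread between mice. Disagreement between arrays was greatest on dim probes, up to 1.21 on a dim *Hars2* probe in Grsf1cKO 1, where the repeat array also had 88.9% of its probes well above background, beside 66.3% to 73.1% on the other 7 arrays. With first arrays only, probes without overlap numbered 3 lower (5.28% of all probes) and 0 higher (3.86% of all probes). These were *Guf1*, *Mtrf1l* and a dimmer *Fars2* probe, so that *Aars2*, *Nars2*, *Oxa1l* and the *Ears2* probe lost their separation. On the first arrays 0 of the 65 probes had an unadjusted *p* under 0.05 in limma, beside 4.08% of all probes.

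**Figure D4:**
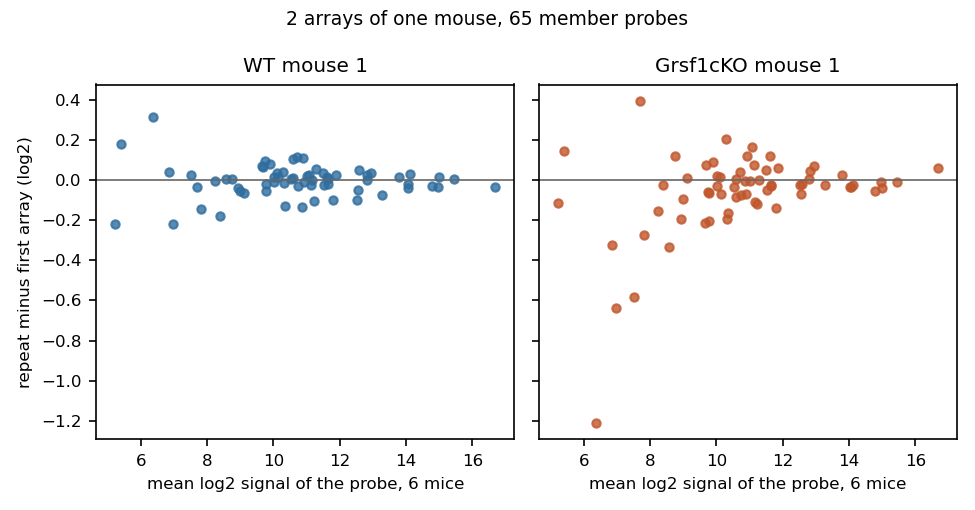
Difference in log2 signal between the repeat and the first array of WT 1 (left) and Grsf1cKO 1 (right) for the 65 probes, against the mean log2 signal of the probe. Dim probes scatter most, down to -1.21 in Grsf1cKO 1, whereas probes with a mean signal above 12 lie close to 0 in both mice.

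Other translation genes are given for comparison. Of 31 further genes of mitochondrial translation, which include the synthetases *Gars* and *Kars*, the amidotransferase subunit *Gatb*, ribosome assembly GTPases and tRNA modifying enzymes, 30 were tested and 0 had an unadjusted *p* under 0.05, beside 3.43% of all named genes. Their median was -0.02. *Kars*, *Mtg1* and, further on, *Mrpl47*, *Myl2* and *Myh7* were also named after their values were seen. *Kars*, the lysine synthetase of both cytosol and mitochondria, and *Mtg1*, a ribosome assembly GTPase, were higher without overlap, by 0.06 and 0.07, and none of the 34 genes was. Of 78 mitochondrial ribosomal proteins, 1 had an unadjusted *p* under 0.05. This was *Mrpl47*, a protein of the large subunit, at -0.45 (unadjusted *p* = 0.0335, adjusted *p* = 0.996, limma), and the median of the 78 was -0.04. The 18 cytosolic synthetases had a median of -0.08, with 15 below 0, and the 18 cytosolic factors of initiation, elongation and release had a median of -0.03, with 13 below 0, and in both lists 0 genes had an unadjusted *p* under 0.05. No test compared these lists with each other.

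**Figure D5:**
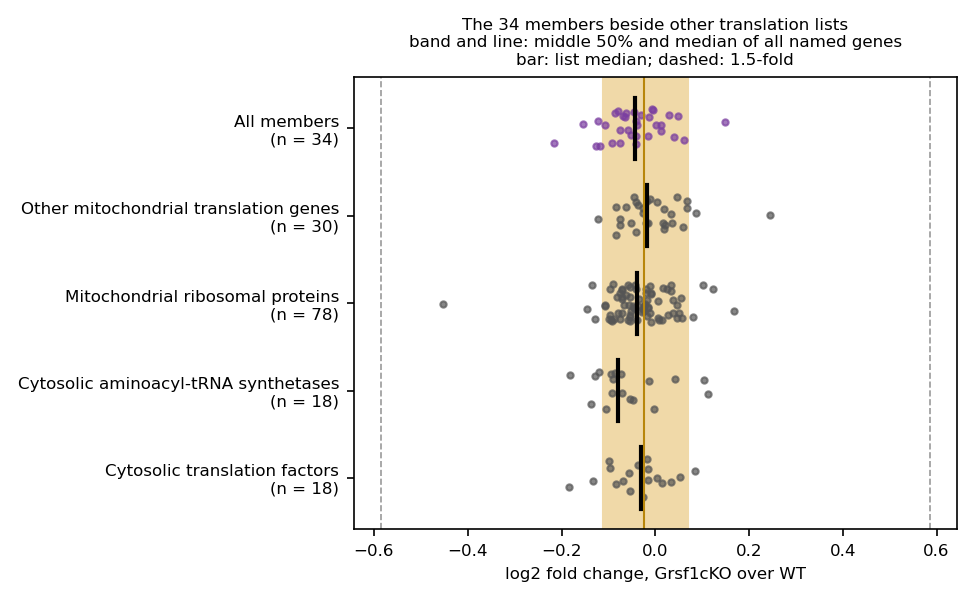
Log2 fold change of Grsf1cKO over WT on the brightest probe of each gene, for the 34 members and 4 other translation lists, with a bar at each list's median and a band over the middle 50% of all 17030 named genes. The list medians run from -0.08 to -0.02, inside the band, and no gene passes the dashed lines at 1.5-fold.

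The tissue matched its label as skeletal muscle, since all 10 skeletal muscle markers were well above background in all 6 mice. Which muscle of the quadriceps it was cannot be read from these markers. For 13 marker lists, of muscle fibers and of the other cells that muscle holds, the summed signal overlapped between genotypes. The nearest to a separation was slow and oxidative fiber, with 102% to 118% of the WT mean in Grsf1cKO mice and 99.0% to 102% in WT mice. Of its 9 genes, 8 were above 0 and 1, *Myl2*, had an unadjusted *p* under 0.05, and Grsf1cKO 3 was the highest mouse in the sum. The gene below 0 was *Myh7*, at -0.59 (interval -2.49 to 1.30). It read 11.35, 9.46 and 9.39 in Grsf1cKO mice 1 to 3 and 9.27, 11.38 and 11.33 in WT mice 1 to 3. Macrophage markers summed to 92.1% to 126% in Grsf1cKO mice and 94.3% to 111% in WT mice. The part of cell composition in the differences of the 34 genes was not tested.

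Promoters of these genes were searched for the letters of motifs known from mitochondrial and muscle genes, in the 250 bases before each RefSeq start (GRCm38.p6), on both strands. A window was given for 30 of the 34 genes, the others being *Mtif3*, *Pars2*, *Guf1* and *Hars2*. The letters GCGCATGC of NRF1, a regulator of nuclear genes for mitochondrial proteins, were found for 3 of 30 genes (10.0%), *Rars2*, *Vars2* and *Wars2*, beside 2.26% of 32851 windows. The half-site AAGGTCA of the estrogen-related receptors was found for *Gfm1* and *Mtrf1l* (6.67%, beside 4.08%), and the E-box CAGCTG for *Gatc* and *Yars2* (6.67%, beside 13.0%). The letters ACTTCCGG of ETS factors were found for 0 of 30, beside 2.88%. No 2 of these motifs share a match, and a match is a description of letters only. The 3 windows shown were chosen because they belong to the members that the values turned on: *Nars2* with the largest difference without overlap on a brightest probe, *Mtrf1l* with the tightest one, and *Mss51* with the widest spread. Each runs 5′ to 3′ toward the start, with the half-site in capitals.
Nars2, plus strand, chr7:96951277-96951526: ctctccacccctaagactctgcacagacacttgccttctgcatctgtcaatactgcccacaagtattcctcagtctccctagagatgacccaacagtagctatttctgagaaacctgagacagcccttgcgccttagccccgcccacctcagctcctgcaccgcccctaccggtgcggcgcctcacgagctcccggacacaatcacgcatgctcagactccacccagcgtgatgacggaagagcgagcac
Mtrf1l, minus strand, chr10:5823944-5824193: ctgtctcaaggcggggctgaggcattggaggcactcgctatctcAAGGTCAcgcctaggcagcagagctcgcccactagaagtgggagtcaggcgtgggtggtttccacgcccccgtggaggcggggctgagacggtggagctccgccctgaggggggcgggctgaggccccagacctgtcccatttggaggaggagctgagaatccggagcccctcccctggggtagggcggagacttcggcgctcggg
Mss51, minus strand, chr14:20496902-20497151: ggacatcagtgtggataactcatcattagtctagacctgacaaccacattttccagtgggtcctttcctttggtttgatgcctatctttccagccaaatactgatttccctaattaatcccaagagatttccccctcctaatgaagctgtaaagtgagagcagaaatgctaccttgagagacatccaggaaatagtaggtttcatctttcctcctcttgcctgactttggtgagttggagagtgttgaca
The half-site of *Mtrf1l* begins 206 bases before the start, and the windows of *Nars2* and *Mss51* hold none of the 4 motifs. *Mtrf1l* and *Gfm1*, which share this half-site, gave -0.08 and -0.12, and *Rars2*, *Vars2* and *Wars2*, which share the NRF1 letters, gave -0.04, -0.22 and 0.00.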

How the data were processed

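For every array the authors deposited spot values from Feature Extraction, the Agilent scanner software (12.0.3.1). Each intensity is on a linear scale, corrected for background and not scaled between arrays. The deposited score of each spot is a *z*-score, which differed by at most 0.005 from the log2 processed signal standardized within its array. In the authors' methods, intensities were quantile normalized before a *z*-test.

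The processed signal was used here, without control spots and with outlier spots set to missing. After quantile normalization of the 8 arrays, log2 signals of a probe were averaged within an array, then within a mouse. Testing required a signal well above background in 3 or more mice and a value in 2 or more per genotype. The model was fitted in limma (3.58.1, R 4.3.3) on genotype alone, and *p* was adjusted over all 38888 probes by the Benjamini-Hochberg method. The number of mice, 3 of each genotype, limits the precision. A gene was given by its brightest probe. Of 56605 probes, 32994 were named through a RefSeq table (GRCm38.p6), used for names and promoters only. The array design was made on mm9.

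The members and lists were chosen with earlier results of these data known. Values in every mouse are given for genes whose brightest probe had genotypes without overlap or an unadjusted *p* under 0.05, and for the 2 genes with the smallest outer bound of the 95% interval, apart from those said to have been singled out later. Single values of some genes in the compared lists are not reported here. The script was tested on simulated data. Alternatives covered scaling, background correction (normexp, offset 50, on the median signal), *z*-scores, detection, repeat arrays, slide, the methods' *z*-test, an intensity trend, a replicate block and each mouse left out.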

Additional observations from a re-analysis of the deposited data

How the results depend on the processing

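As reported and in each alternative run as a test, 0 of the 65 probes passed all criteria. The count with an unadjusted *p* under 0.05 was reported as 0 in either direction. With the deposited *z*-scores it was 2 lower, beside 3.99% of all probes. Where repeat arrays replaced the first ones it was 1 lower, beside 2.98% of all probes. On slide 2 only it was 1 lower, beside 4.12%, and with the methods' *z*-test 4 lower, beside 10.8%. Leaving out each mouse in turn gave 0 to 3 lower and 0 to 1 higher, beside 4.21% to 5.47% of all probes in either direction. With the replicate block the count was 1 lower, beside 6.2% of all probes. It was a dim *Ears2* probe at -0.44 (unadjusted *p* = 0.0372, adjusted *p* = 0.788, limma). The deviations of same-numbered mice correlated at 0.23, 0.10 and 0.10. The labels give these mice only a shared number, and the correlations cannot decide whether they shared more. Under the methods' *z*-test *Mtrf1l* had an adjusted *p* of 0.0299 at -0.08.

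The median over the 34 genes stayed between -0.07 and -0.03. Of 578 values of single genes under the alternatives, 569 moved by less than 1 SD, 0 exceeded 1.5-fold and 55 changed sign. *Mss51* ranged from -0.43, without WT 2, to 0.25, and slide 2, which leaves out WT 2, gave -0.42. *Mars2* ranged from 0.04 to 0.26 and *Wars2* from -0.14 to 0.24. The cause of these changes was not tested. *Grsf1* was -2.14 with normexp. Of the 65 probes, 64 were well above background in all 6 mice. The median of the 78 ribosomal proteins was 0.02 on the *z*-scores. For the slide as a block, the mouse was a random block over all 8 arrays. Slide 1 held only WT 1 and WT 2.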
